A study of Mus musculus with 18 samples.

Results

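The genes described here are 35 genes of sterol and fatty acid synthesis and its control, picked from the 50600 rows of the gene count table by their symbols. By role they fall into 7 genes of early sterol synthesis, 11 of late sterol synthesis, 5 of SREBP control, 3 of sterol efflux and uptake control, and 9 of fatty acid synthesis and desaturation. Every one of the 35 has a row in the table. The RNA was that of Foxp3+ regulatory T cells (Tregs) that had been sorted by flow cytometry on reporter dyes and surface markers from single C57BL/6 mice. CD25, encoded by *Il2ra*, is the chain of the IL-2 receptor that gives it high affinity. The study compared Tregs without functional CD25 (CD25 KO) with reporter controls (WT), in thymus and in spleen.

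Thymic CD25 KO Tregs were taken from 5 “cured” CD25cKO mice (CD25 flox crossed to Foxp3-YFP/Cre), which were given WT splenocytes as newborns and so also held donor Tregs, and thymic WT Tregs from 5 Foxp3/RFP mice, all aged 3–4 weeks. Splenic CD25 KO Tregs were taken from 4 CD25flox/Foxp3eGFP-Cre-ERT2/R26Y mice, and splenic WT Tregs from 4 reporter mice without the floxed allele, 10–14 days after tamoxifen that was started at 7–10 weeks of age. In both models Cre is made from the *Foxp3* locus and removes exon 4 of *Il2ra*, so the rest of the *Il2ra* transcript can still be counted. Tissue, mouse model, age and the date in the column headers changed together, and their parts in a difference between tissues cannot be told apart. In the thymus, WT and CD25 KO mice also differed in the reporter allele of *Foxp3*, and the transfer of WT splenocytes is described for the CD25 KO mice only. Neither can be told apart from the loss of CD25.

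Cells make sterols from acetyl-CoA by the mevalonate pathway, which leads over farnesyl diphosphate to squalene, lanosterol and at last cholesterol. When the endoplasmic reticulum holds little sterol, the escort protein SCAP carries the SREBP transcription factors to the Golgi, where they are cut and set free to turn on genes of sterol and fatty acid synthesis. When sterol is plentiful, INSIG proteins hold SCAP back, and the oxysterol-sensing LXR receptors turn on genes of sterol export. Activated and dividing lymphocytes are known for raising both programs, since new membrane needs both kinds of lipid.

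To show the DNA from which the genes are read, promoter windows were taken from RefSeq (GRCm38.p6), from 250 bases before to 50 bases after each start site. Of the 35 genes, 28 had at least 1 window. *Fdps*, *Fdft1*, *Sqle*, *Abcg1*, *Scd1*, *Scd2* and *Fads1* had none. Windows were searched on both strands for TCACNCCAC, a form of the sterol regulatory element that SREBPs bind, for CACGTG, the E-box, and for CCAAT, the box of the factor NF-Y, which is known to act beside SREBPs. Different motifs can share at most 3 letters at their ends. CCAAT stood in 22 of 28 genes (78.6%), and in 41.1% of 27025 genes that have a window. Among the sterol synthesis genes it stood in 14 of 15, among genes called lower in spleen in 10 of 11, and among the others in 12 of 17. CACGTG stood in 6 of 28 genes (21.4%), against 8.09% of all genes. Among genes called lower in spleen it stood in 2 of 11 (18.2%), and among the others in 4 of 17 (23.5%). TCACNCCAC stood in 1 of 28, *Hmgcs1*, against 1.44% of all genes. Base composition was not taken into account, and a match is letters only, not a bound site.

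The upstream parts of 7 windows are printed 5′ to 3′ on the strand of the gene, without bases that GENCODE places in an exon of any gene, and with every match of the 3 motifs in capitals. *Hmgcs1*, at chr13:119690101-119690350 on the plus strand, is shown for its TCACNCCAC match. *Lss* at chr10:76531355-76531587 on the plus strand, *Mvd* at chr8:122443423-122443672 on the minus strand and *Mvk* at chr5:114444061-114444268 on the plus strand are shown as the genes with a single window and the lowest adjusted p in spleen. *Insig1* at chr5:28071162-28071362 on the plus strand and *Hsd17b7* at chr1:169969242-169969408 on the minus strand are shown for their E-boxes, and *Nsdhl* at chrX:72918412-72918520 on the plus strand as a sterol gene that was not called in spleen. All but *Hmgcs1* were picked after the values had been seen.
Hmgcs1: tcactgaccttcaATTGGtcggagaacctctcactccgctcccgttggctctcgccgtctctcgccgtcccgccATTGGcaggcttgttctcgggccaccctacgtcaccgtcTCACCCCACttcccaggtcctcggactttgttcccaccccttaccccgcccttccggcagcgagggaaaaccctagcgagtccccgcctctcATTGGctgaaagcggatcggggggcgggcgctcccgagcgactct
Lss: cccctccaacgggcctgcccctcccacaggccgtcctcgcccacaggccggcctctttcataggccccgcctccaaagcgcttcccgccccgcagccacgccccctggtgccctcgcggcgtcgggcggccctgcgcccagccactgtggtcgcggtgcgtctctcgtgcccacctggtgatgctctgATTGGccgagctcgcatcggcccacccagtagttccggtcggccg
Mvd: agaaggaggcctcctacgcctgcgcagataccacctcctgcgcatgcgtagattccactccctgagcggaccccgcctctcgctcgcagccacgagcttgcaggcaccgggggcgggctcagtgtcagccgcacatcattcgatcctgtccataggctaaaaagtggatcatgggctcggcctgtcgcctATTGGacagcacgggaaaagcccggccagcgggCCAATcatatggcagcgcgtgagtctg
Mvk: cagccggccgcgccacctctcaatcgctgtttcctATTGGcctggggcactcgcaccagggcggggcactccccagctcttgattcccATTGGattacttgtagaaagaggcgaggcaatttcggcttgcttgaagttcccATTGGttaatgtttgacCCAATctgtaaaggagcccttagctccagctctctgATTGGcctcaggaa
Insig1: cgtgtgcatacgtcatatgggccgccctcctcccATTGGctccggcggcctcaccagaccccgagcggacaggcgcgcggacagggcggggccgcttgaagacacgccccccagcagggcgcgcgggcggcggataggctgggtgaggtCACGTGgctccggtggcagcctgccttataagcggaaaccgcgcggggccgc
Hsd17b7: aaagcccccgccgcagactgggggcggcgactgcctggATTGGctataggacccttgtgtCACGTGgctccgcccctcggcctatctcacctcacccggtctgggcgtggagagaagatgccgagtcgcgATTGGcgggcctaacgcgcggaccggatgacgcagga
Nsdhl: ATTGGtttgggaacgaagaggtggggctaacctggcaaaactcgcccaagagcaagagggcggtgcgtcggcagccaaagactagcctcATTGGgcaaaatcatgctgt
The TCACNCCAC match of *Hmgcs1* began 137 bases before the start site. ATTGG is CCAAT read on the other strand. The printed stretch of *Mvk* held 5 such boxes, that of *Hmgcs1* 3, those of *Mvd* and *Hsd17b7* 2 each, those of *Lss* and *Insig1* 1 each, and that of *Nsdhl*, which was not called, 2.

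Levels are given in CPM, the counts of a gene scaled to a library total of 1000000 with the TMM factors of all 18 samples. Gene counts summed to 17239774–23993674 per thymic and 25258341–32639570 per splenic sample. *Il2ra*, the targeted gene, was lower in every CD25 KO mouse than in any WT mouse of its tissue (log2 fold change -1.49 ± 0.07 in spleen, -1.90 ± 0.30 in thymus). In the thymus, CD25 KO mice 2 and 4 had more of it than the others (105, 279.7, 96.1, 234 and 95.8 CPM in CD25 KO mice 1 to 5, against 664, 651, 524, 682 and 544 in WT mice). The same mice stood apart in 10 proliferation markers, whose summed level was 255, 1149, 257, 921 and 182 CPM in CD25 KO mice 1 to 5 and 566 to 1362 CPM over the thymic WT mice. In spleen, 9 of these 10 markers were called higher in CD25 KO Tregs, and their sum was 167 to 189.8 CPM in WT and 292 to 399.5 in CD25 KO mice. Of the 8 B cell markers 2 of 5 tested were called higher there (summed level 30.1 to 36.4 CPM in WT, 39.1 to 49.3 CPM in CD25 KO), and of the 8 myeloid markers 1 of 5 tested (17.6 to 24.6 and 22.3 to 29.7 CPM). Of the 5 B cell markers tested 4 had a positive estimate, with a median log2 fold change of 0.72. Of the 8 Treg markers, all tested in both tissues, 5 were called lower in the thymus (summed level 3578 to 4535 CPM in WT, 3168 to 3794 CPM in CD25 KO), and 2 lower and 3 higher in spleen (3466 to 3699 and 3602 to 3999.6 CPM). The part that proliferating, B or myeloid cells play in the results was not tested. By flow cytometry, the paper found a shift to effector Tregs in spleen without CD25. It found a shift to central Tregs in the thymus of adult “cured” mice. The paper allows that some expression differences may follow from these shifts, and their part here was not tested either. In such bulk samples, fewer cells of a type and less RNA per cell cannot be told apart.

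In splenic Tregs, most sterol synthesis genes were lower without CD25. Of the 35 genes 33 passed the filter on low counts, and 14 of them (42.4%) were called lower at an adjusted p under 0.01 in edgeR's quasi-likelihood test (called FDR here), against 3.55% of the 17463 genes tested. 1 of the 33 was called higher, against 5.9% of all genes. The 14 comprised 5 of 7 early and 6 of 11 late sterol genes, 2 of 5 SREBP control genes and 1 of 7 tested fatty acid genes. In 19 of the 33 genes the CD25 KO mice all lay under the lowest WT mouse, which was so in 9.21% of all genes tested. The median log2 fold change was -0.17 over the 33 genes and -0.44 over the 18 sterol synthesis genes. Summed over those 18 genes, the level was 495 ± 36.3 CPM in WT and 382 ± 27.7 CPM, or 77% of that, without CD25 (n = 4 mice each, with SD).

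**Figure D1:**
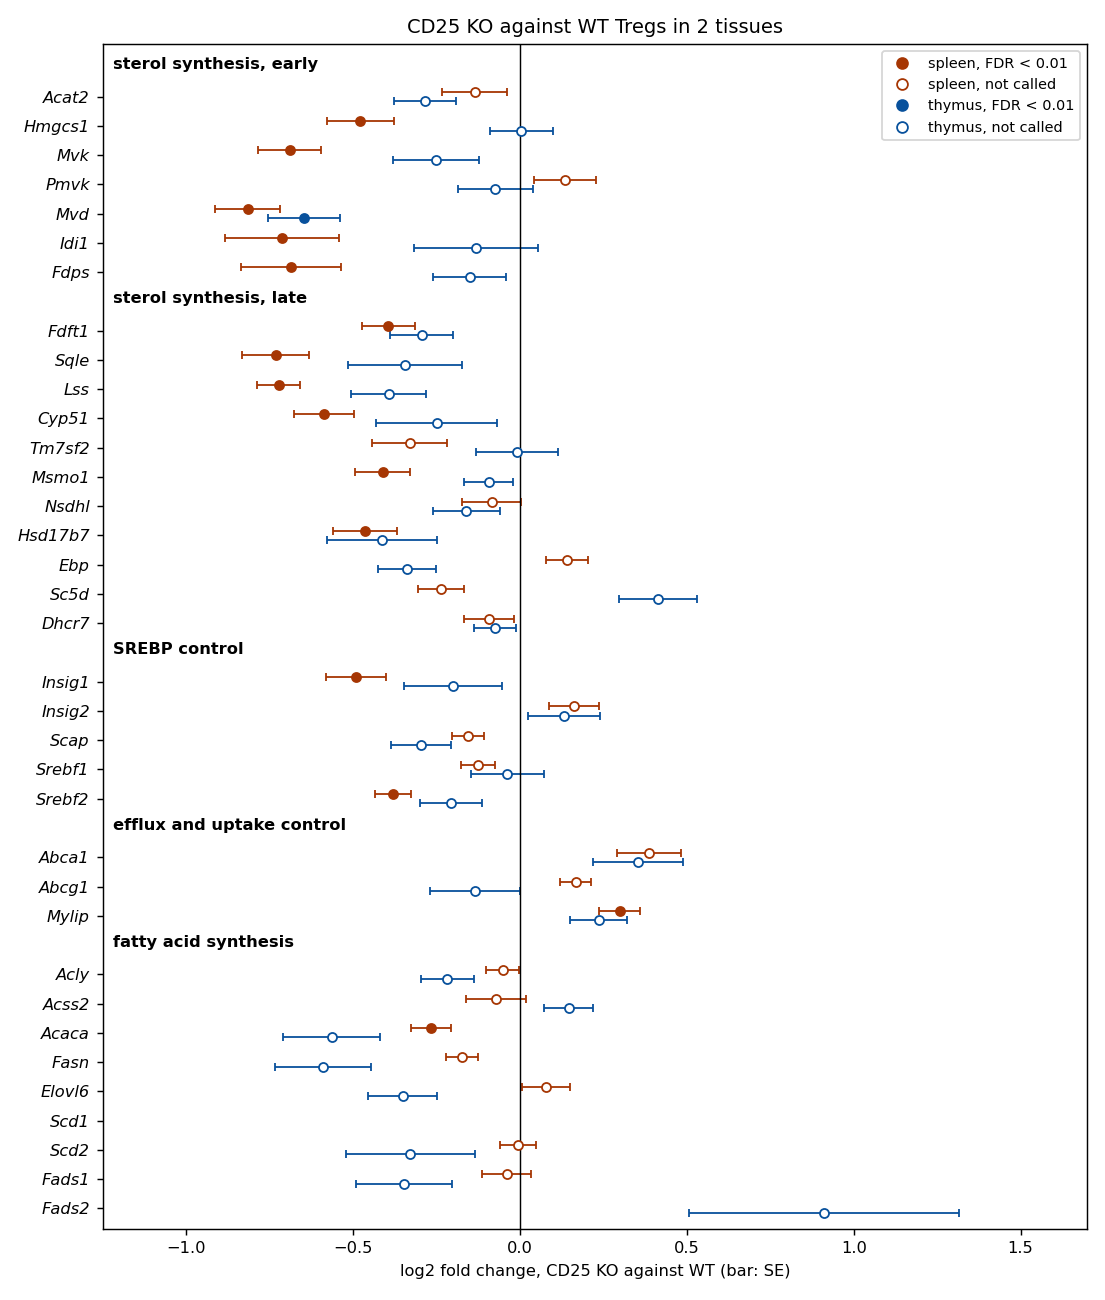
Log2 fold change of CD25 KO against WT Tregs (horizontal axis) for each gene by role, in spleen (brown) and thymus (blue), with the SE as a bar and filled points for FDR < 0.01. In spleen 11 of 18 sterol synthesis genes have filled points left of 0, in thymus *Mvd* alone; *Scd1* was tested in neither tissue and *Fads2* in thymus only.

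In the following, CPM values are listed in the order of the mouse numbers, and the log2 fold change with its SE and the FDR stand in parentheses. Among the early genes, *Mvd*, which makes isopentenyl diphosphate from mevalonate diphosphate, had the largest fall. It was at 19.3, 18.5, 22.5 and 18.8 CPM in splenic WT mice and 12.96, 9.81, 10.96 and 11.2 CPM in CD25 KO mice (-0.82 ± 0.10, FDR = 3.15e-05). The groups were far apart, the highest CD25 KO mouse being well below the lowest WT mouse. *Mvk*, the mevalonate kinase, was at 11.2, 10.3, 11.5 and 11.4 CPM in WT and 6.73, 6.56, 7.05 and 7.12 in CD25 KO mice (-0.69 ± 0.09, FDR = 0.000107). Its mice hardly differed within a genotype, and the groups did not overlap. *Hmgcs1*, the synthase that makes HMG-CoA at the head of the pathway, was at 50.97, 52.4, 65.3 and 57.8 CPM in WT and 39.7, 40.3, 33.2 and 48.8 in CD25 KO mice (-0.48 ± 0.10, FDR = 0.0034). WT mouse 3 was the highest and CD25 KO mouse 3 the lowest, and CD25 KO mouse 4 came close to WT mouse 1.

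*Idi1*, which isomerizes isopentenyl diphosphate, was at 7.28, 6.08, 6.85 and 6.58 CPM in WT and 2.89, 5.05, 3.26 and 5.03 in CD25 KO mice (-0.71 ± 0.17, FDR = 0.0085). CD25 KO mice 1 and 3 were lower than 2 and 4, and none reached the WT range. *Fdps*, farnesyl diphosphate synthase, was at 5.65, 7.80, 8.26 and 7.41 CPM in WT and 4.75, 4.40, 3.56 and 5.32 in CD25 KO mice (-0.68 ± 0.15, FDR = 0.0047). WT mouse 1 was the lowest of the WT mice and just above the highest CD25 KO mouse. Both calls depended on single mice, *Idi1* keeping its call in 2 and *Fdps* in 3 of 8 fits that left out 1 mouse. *Fdps* also has 1124 exonic bases in common with *Gm43738* on the same strand, where reads cannot be given to 1 gene. *Acat2*, which joins acetyl-CoA units (-0.13 ± 0.10, FDR = 0.387), and *Pmvk*, phosphomevalonate kinase (0.14 ± 0.09, FDR = 0.363), were not called, and their groups overlapped. *Pmvk* works between *Mvk* and *Mvd* in the pathway, and was at 8.67 to 10.7 CPM in WT and 10.6 to 11.1 in CD25 KO mice.

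Late sterol synthesis starts with squalene. *Lss*, which closes squalene epoxide into lanosterol, had the lowest FDR of the 33 genes tested. It was at 28.8, 28.6, 29.2 and 27.1 CPM in WT and 16.9, 16.5, 17.6 and 17.7 in CD25 KO mice (-0.72 ± 0.06, FDR = 2.23e-06). Mice of a genotype were nearly alike, and the CD25 KO level was 0.606 times that of WT. *Sqle*, squalene epoxidase, was at 32.5, 36.2, 47.3 and 37.8 CPM in WT and 24.4, 22.6, 20.5 and 24.9 in CD25 KO mice (-0.73 ± 0.10, FDR = 0.000103). WT mouse 3 stood above the other WT mice, and the groups did not overlap without it either. *Fdft1*, squalene synthase, was at 33.1, 32.03, 41.9 and 35.02 CPM in WT and 26.8, 28.4, 26.05 and 26.7 in CD25 KO mice (-0.39 ± 0.08, FDR = 0.00245). Here too WT mouse 3 was the highest, while the CD25 KO mice lay close together. *Fdft1* has 774 exonic bases in common with *Ctsb* on the other strand, and whether counting used the strand is not given in the sources used here. The same holds for *Hmgcs1*, *Idi1*, *Lss*, *Cyp51*, *Scap*, *Srebf1*, *Acss2* and *Elovl6*, which also have exonic bases in common with a gene on the other strand. *Tm7sf2* has 532 such bases with *Vps51* on the same strand.

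*Cyp51*, *Msmo1*, *Nsdhl* and *Hsd17b7* together take methyl groups off lanosterol and its products. *Cyp51*, the demethylase, was at 55.8, 59.2, 72.9 and 60.5 CPM in WT and 37.4, 44.99, 36.6 and 46.1 in CD25 KO mice (-0.59 ± 0.09, FDR = 0.000282). *Msmo1*, the methylsterol oxidase, was at 36.3, 36.8, 40.6 and 34.98 CPM in WT and 27.2, 30.8, 23.4 and 30.2 in CD25 KO mice (-0.41 ± 0.08, FDR = 0.00253). In both genes CD25 KO mouse 3 was the lowest, and no CD25 KO mouse reached a WT mouse. *Hsd17b7*, the sterol ketoreductase, was at 12.7, 12.04, 12.2 and 12.998 CPM in WT and 9.09, 8.08, 8.80 and 10.2 in CD25 KO mice (-0.46 ± 0.10, FDR = 0.00301). The WT mice lay close together, and CD25 KO mouse 4 was nearest to them. *Nsdhl*, the dehydrogenase of the same complex, was not called (-0.08 ± 0.09, FDR = 0.567), and its mice overlapped.

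*Sc5d*, the sterol C5 desaturase, was at 54.6, 59.8, 63.5 and 57.4 CPM in WT and 46.6, 54.3, 45.5 and 53.1 in CD25 KO mice (-0.24 ± 0.07, FDR = 0.0261), with no overlap and no call. *Tm7sf2*, a sterol C14 reductase, also had no overlap and no call (-0.33 ± 0.11, FDR = 0.0575). *Ebp*, the sterol isomerase, was at 32.6, 33.8, 35.2 and 36.9 CPM in WT and 37.5, 39.3, 35.2 and 40.6 in CD25 KO mice (0.14 ± 0.06, FDR = 0.15). It thus had a positive estimate, with CD25 KO mouse 3 inside the WT range. *Dhcr7*, which makes cholesterol from its last precursor, was not called (-0.09 ± 0.08, FDR = 0.444), and CD25 KO mouse 3, at 28.1 CPM, was the lowest of the 8 mice, the others having 34.2 to 36.6 CPM.

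**Figure D2:**
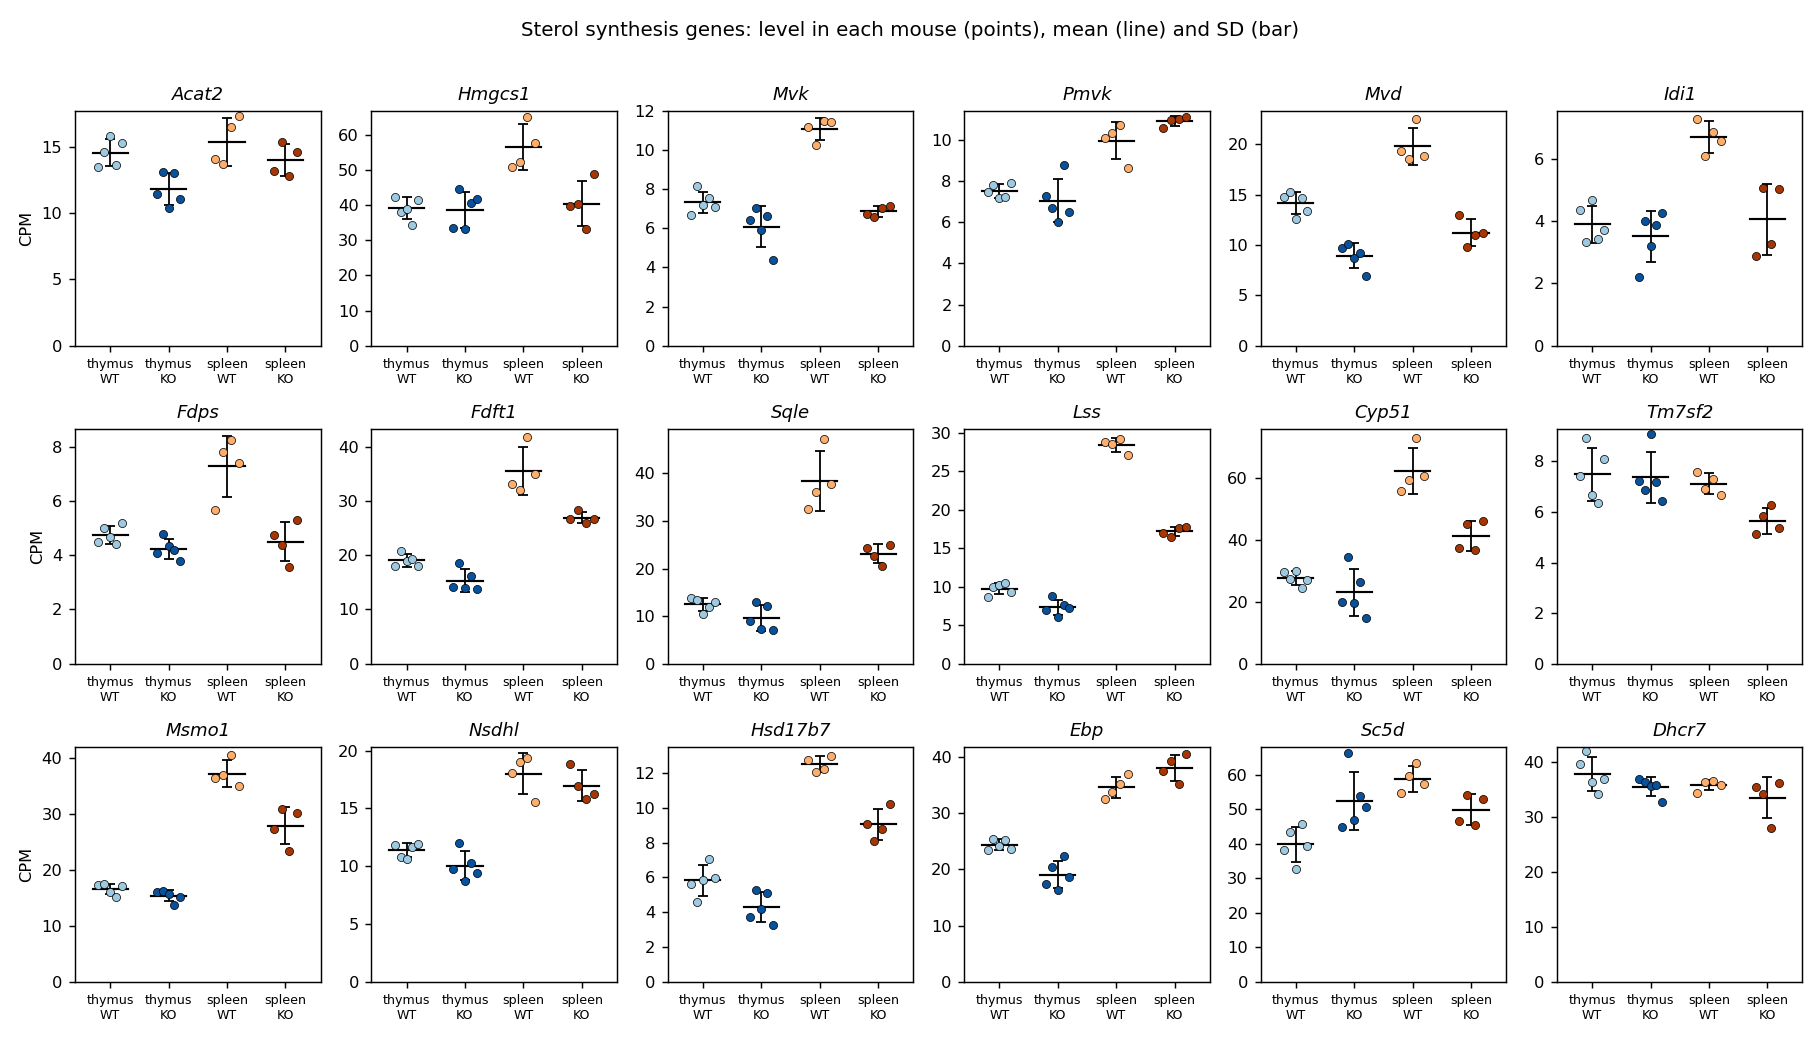
CPM (vertical axis, from 0) of the 18 sterol synthesis genes in each mouse (points), with the mean (line) and SD (bar) of each group of tissue and genotype. In spleen, all CD25 KO mice lie below all WT mice in 13 of the 18 genes, and splenic WT mice are the highest group in most of them.

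Of the SREBP control genes, 2 were lower in splenic CD25 KO Tregs. *Insig1*, which holds SCAP in the endoplasmic reticulum and is itself an SREBP target, was at 63.9, 60.6, 64.9 and 59.2 CPM in WT and 45.9, 46.9, 34.1 and 49.7 in CD25 KO mice (-0.49 ± 0.09, FDR = 0.00133). *Srebf2*, which encodes the SREBP of sterol genes, was at 255, 256, 290.5 and 271 CPM in WT and 212, 205, 197 and 209.8 in CD25 KO mice (-0.38 ± 0.05, FDR = 0.000125). CD25 KO mouse 3 was the lowest for both, and neither gene had groups that overlapped. *Scap* (-0.15 ± 0.05, FDR = 0.0392) and *Srebf1*, which encodes the SREBP best known for fatty acid genes (-0.12 ± 0.05, FDR = 0.112), had smaller estimates that were not called, and neither had groups that overlapped. For *Srebf1* the highest CD25 KO mouse (100.45 CPM) was next to the lowest WT mouse (100.46 CPM). *Insig2*, the INSIG that does not depend on SREBP in most tissues, had a positive estimate and overlapped (0.16 ± 0.07, FDR = 0.162).

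Of the 3 efflux and uptake genes, which are targets of LXR, 1 was called higher. *Mylip*, a ubiquitin ligase that removes lipoprotein receptors from the cell surface, was at 45.6, 49.5, 53.7 and 53.7 CPM in WT and 63.5, 64.4, 58.8 and 62.2 in CD25 KO mice (0.30 ± 0.06, FDR = 0.00296). Every CD25 KO mouse was above every WT mouse. The same order without overlap was seen for the cholesterol exporters *Abca1* (36.8 to 55.8 CPM in WT, 56.7 to 68.1 in CD25 KO, 0.39 ± 0.10, FDR = 0.0111) and *Abcg1* (159 to 164 and 171 to 187 CPM, 0.17 ± 0.05, FDR = 0.0211), which were not called. Over all genes tested in spleen, 11.2% had every CD25 KO mouse above every WT mouse. DESeq2 called all 3 genes higher, against 7.25% of all genes it tested. The edgeR call of *Mylip* was lost in 2 of 8 fits without 1 mouse.

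Fatty acid genes changed little in spleen. *Acaca*, the acetyl-CoA carboxylase that commits carbon to fatty acids, was at 58.9, 55.1, 61.7 and 65.8 CPM in WT and 50.4, 48.1, 50.6 and 51.5 in CD25 KO mice (-0.27 ± 0.06, FDR = 0.00542). The groups did not overlap, but the call was kept in only 3 of 8 fits without 1 mouse. *Fasn*, fatty acid synthase, had no overlap and no call (255 to 273 CPM in WT, 224 to 245 in CD25 KO, -0.17 ± 0.05, FDR = 0.0203). The estimates of *Acly*, which makes cytosolic acetyl-CoA from citrate (-0.05 ± 0.05), *Acss2*, which makes it from acetate (-0.07 ± 0.09), *Elovl6*, an elongase (0.08 ± 0.07), and the desaturases *Scd2* (-0.01 ± 0.05) and *Fads1* (-0.04 ± 0.07) were all within 0.1 of 0, with overlapping groups. *Scd1* was too low to test, with 2 to 11 counts in splenic WT and 4 to 7 in splenic CD25 KO mice. *Fads2* was too, with 1 to 3 and 2 to 11 counts.

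**Figure D3:**
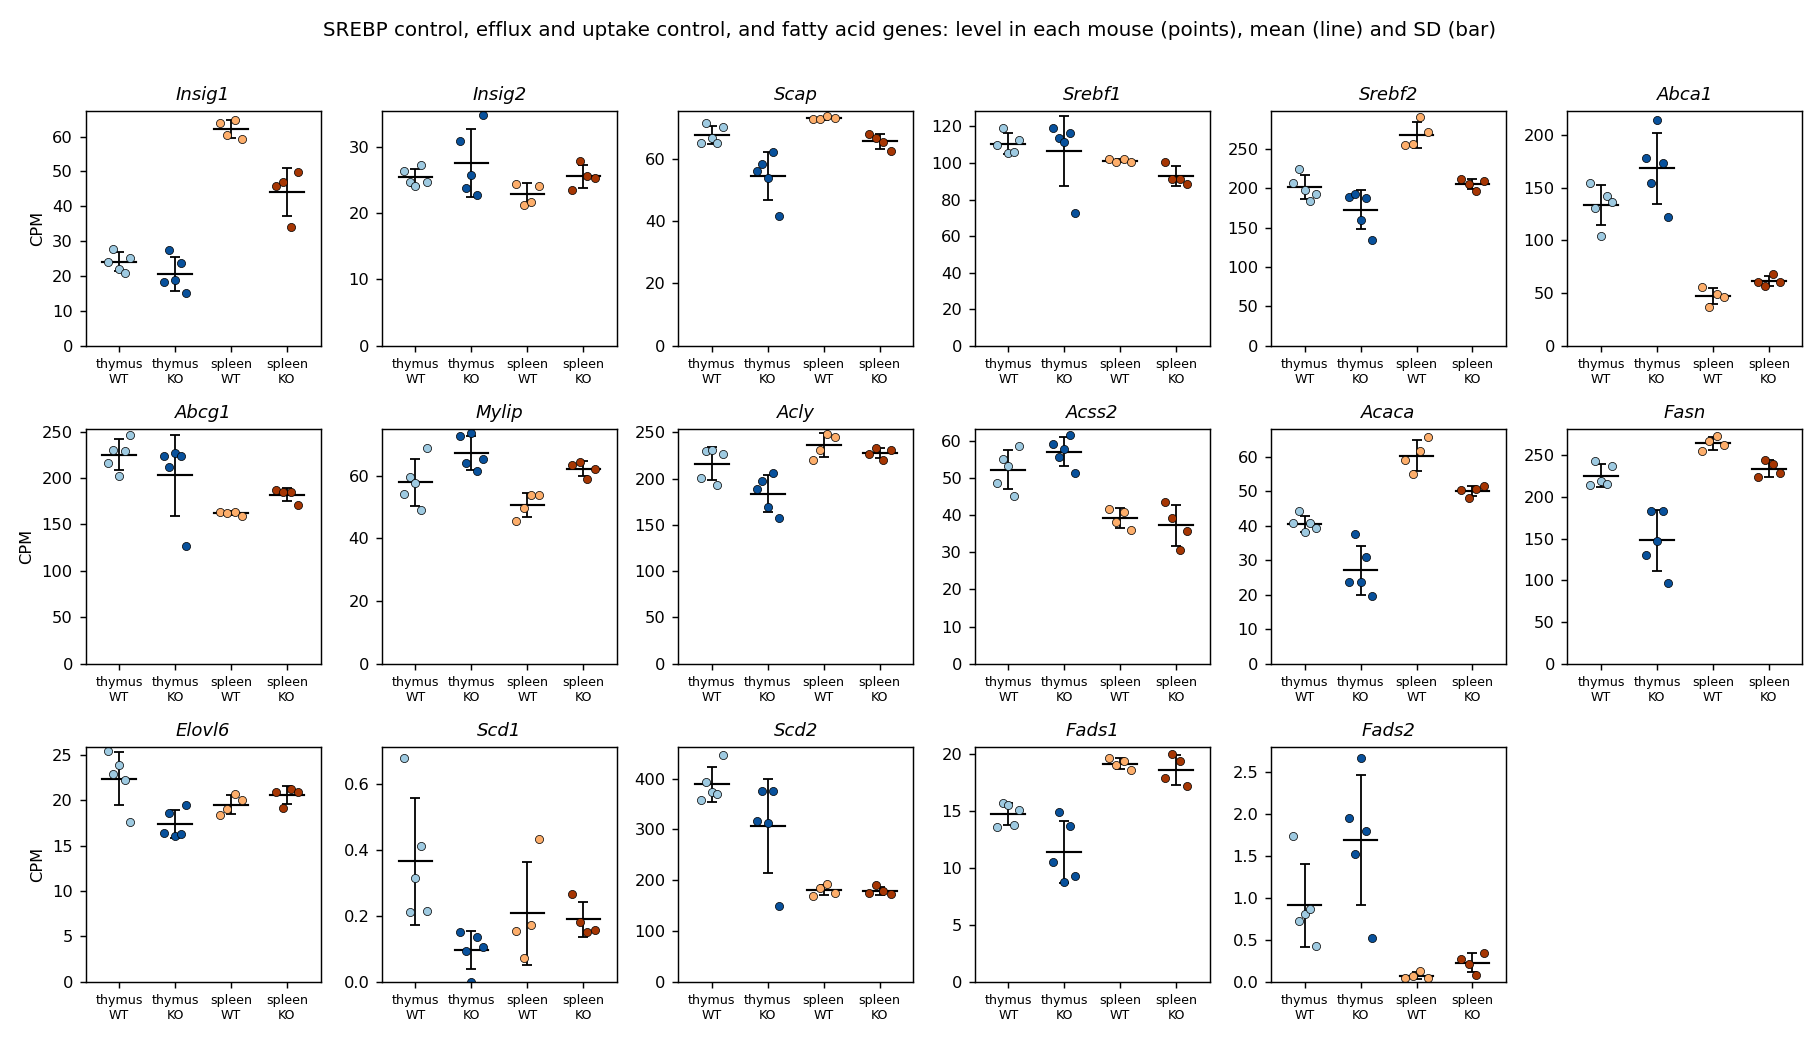
CPM (vertical axis, from 0) of the genes of SREBP control, efflux and uptake control, and fatty acid synthesis in each mouse (points), with the mean (line) and SD (bar) of each group. In spleen the 3 efflux and uptake genes have every CD25 KO mouse above every WT mouse, and in thymus CD25 KO mouse 5 (last point of its group) is the lowest for *Srebf1*, *Abcg1*, *Scd2* and *Fasn*.

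In thymic Tregs 34 of the 35 genes were tested. 1 was called lower (2.94%), against 2.99% of the 16986 genes tested, and 0 were called higher by edgeR, against 3.17%. Over all genes upper-quartile scaling moved these shares to 2.59% lower and 4.76% higher. At an unadjusted p under 0.05, 13 of the 34 were lower and 4 higher, but the share of all genes at that p was not computed. At FDR < 0.05, 9 were lower and 1 higher, against 10.9% and 12.3% of all genes. DESeq2 called 5 lower and 1, *Sc5d*, higher, against 6.33% and 7.5% of the genes it tested. Estimates were negative for 27 of the 34 genes, against 50.3% of all genes tested, with a median log2 fold change of -0.20. After a correction for GC content they were negative for 24, with a median of -0.15. In 6 genes (*Acat2*, *Mvd*, *Ebp*, *Scap*, *Acaca* and *Fasn*) the CD25 KO mice all lay under the lowest WT mouse, against 9.17% of all genes tested. The sum over the 18 sterol synthesis genes was 304 ± 9.22 CPM in WT and 279.9 ± 32.3 CPM, or 92.1% of that, without CD25 (n = 5 mice each, with SD). The sum over the 9 fatty acid genes was 962 ± 62.3 CPM in WT and 753 ± 156 CPM, or 78.3% of that, without CD25. In spleen the fatty acid sum was at 93.8% of WT.

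The called gene was *Mvd*, at 14.7, 15.3, 12.6, 14.7 and 13.4 CPM in thymic WT mice and 9.64, 10.1, 8.65, 9.23 and 6.93 CPM in CD25 KO mice (-0.65 ± 0.11, FDR = 0.00309). The groups were clearly apart, and CD25 KO mouse 5 was the lowest. The call was kept in 8 of 10 fits without 1 mouse. The difference of its effect between the tissues was -0.16 ± 0.15 (FDR = 0.504). *Acaca* was at 40.7, 44.2, 38.1, 40.7 and 39.4 CPM in WT and 23.7, 37.5, 23.7, 31.1 and 19.6 in CD25 KO mice (-0.56 ± 0.15, FDR = 0.0182). *Fasn* was at 214, 243, 219, 216 and 237 CPM in WT and 131, 183, 147, 183 and 96.8 in CD25 KO mice (-0.59 ± 0.14, FDR = 0.0144). In neither did the groups overlap, and CD25 KO mice 2 and 4 were the nearest to WT. *Elovl6* (-0.35 ± 0.10, FDR = 0.0293) and *Fads1* (-0.35 ± 0.14, FDR = 0.0967) also had negative estimates. *Fads2* had 10 to 36 counts in thymic WT and 10 to 49 in thymic CD25 KO mice and was not called (0.91 ± 0.41). *Scd1* was at 5 to 14 and 0 to 3 counts and was not tested.

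In several sterol genes called in spleen, thymic CD25 KO mice differed widely among themselves. *Sqle* was at 13.8, 13.3, 10.5, 11.9 and 12.9 CPM in thymic WT and 8.99, 12.9, 7.24, 12.1 and 7.14 CPM in CD25 KO mice (-0.34 ± 0.17, FDR = 0.16). *Cyp51* was at 29.7, 27.4, 29.9, 24.6 and 27.1 CPM in WT and 19.99, 34.6, 19.5, 26.2 and 14.8 in CD25 KO mice (-0.25 ± 0.18, FDR = 0.337). In both, CD25 KO mice 2 and 4 had the 2 highest levels of their group, and mice 1, 3 and 5 were below every WT mouse. *Lss* was at 8.72, 9.98, 10.3, 10.4 and 9.35 CPM in WT and 6.95, 8.80, 6.10, 7.61 and 7.19 in CD25 KO mice (-0.39 ± 0.11, FDR = 0.0262). *Fdft1* had 18.1, 20.9, 19.03, 19.3 and 18.1 CPM in WT and 14.1, 18.6, 13.9, 16.2 and 13.9 in CD25 KO mice (-0.29 ± 0.10, FDR = 0.0429). *Insig1* was at 24.02, 27.9, 22.04, 20.9 and 25.2 CPM in WT and 18.1, 27.5, 18.7, 23.7 and 14.96 in CD25 KO mice (-0.20 ± 0.15). Again mice 2 and 4 were the highest of their group in these 3 genes.

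*Hsd17b7* was at 5.62, 4.59, 5.83, 7.08 and 5.97 CPM in thymic WT and 3.70, 5.30, 4.19, 5.09 and 3.25 CPM in CD25 KO mice (-0.41 ± 0.16). *Mvk* had 6.68, 8.16, 7.18, 7.54 and 7.08 CPM in WT and 6.45, 7.05, 5.93, 6.62 and 4.36 in CD25 KO mice (-0.25 ± 0.13). *Srebf2* was at 207, 224, 198, 184 and 193 CPM in WT and 188, 193, 160.1, 187 and 134 in CD25 KO mice (-0.21 ± 0.09). These groups overlapped, with CD25 KO mouse 5 the lowest in all 3. *Hmgcs1* had nearly equal means (42.5, 38.2, 38.998, 34.5 and 41.6 CPM in WT, 33.4, 44.5, 33.4, 40.7 and 41.9 in CD25 KO, 0.00 ± 0.09). For *Idi1* the levels were 4.36, 3.31, 4.67, 3.43 and 3.71 CPM in WT and 2.20, 4.01, 3.21, 3.87 and 4.25 in CD25 KO mice (-0.13 ± 0.19), and CD25 KO mouse 1 was the lowest. *Fdps* had 4.504, 5.01, 4.67, 4.43 and 5.21 CPM in WT and 4.10, 4.79, 4.35, 4.19 and 3.78 in CD25 KO mice (-0.15 ± 0.11). *Msmo1* had 17.2, 17.4, 15.98, 15.1 and 17.03 CPM in WT and 15.99, 16.3, 15.7, 13.7 and 15.1 in CD25 KO mice (-0.09 ± 0.07). None of these 4 genes was called, and WT and CD25 KO mice overlapped in each. *Mylip* was at 54.2, 59.6, 57.6, 48.9 and 68.8 CPM in WT and 72.7, 63.99, 73.5, 61.4 and 65.1 in CD25 KO mice (0.24 ± 0.08, FDR = 0.0618), which overlapped.

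The remaining genes are given as thymic group means with their SD. *Acat2* was at 14.6 ± 1.01 CPM in WT and 11.8 ± 1.22 in CD25 KO mice (-0.28 ± 0.09, FDR = 0.0433). *Scap* was at 67.8 ± 2.92 CPM in WT and 54.5 ± 7.86 in CD25 KO mice (-0.30 ± 0.09, FDR = 0.0353). Both had groups that did not overlap and both missed the call. *Acly* was at 216 ± 18.02 CPM in WT and 184 ± 19.9 in CD25 KO mice (-0.22 ± 0.08, FDR = 0.0659). *Scd2* was at 388 ± 35.1 CPM in WT and 306 ± 92.8 in CD25 KO mice (-0.33 ± 0.19, FDR = 0.235), with CD25 KO mouse 5 far below the others. *Abca1* was at 133 ± 18.7 CPM in WT and 169 ± 33.8 in CD25 KO mice (0.35 ± 0.13, FDR = 0.0753), so that its estimate was positive in both tissues. For *Abcg1* the thymic estimate was negative (-0.13 ± 0.13), and CD25 KO mouse 5 was again the lowest. The estimates of *Pmvk* (-0.07 ± 0.11), *Nsdhl* (-0.16 ± 0.10), *Tm7sf2* (-0.01 ± 0.12), *Dhcr7* (-0.07 ± 0.06), *Insig2* (0.13 ± 0.11), *Srebf1* (-0.04 ± 0.11) and *Acss2* (0.15 ± 0.07) were within 0.2 of 0 with overlapping groups.

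Without CD25 KO mice 2 and 4, which hold more *Il2ra* and more proliferation marker RNA than the other 3, 10 of 34 genes were called lower in the thymus. Over all 17433 genes tested in that fit, 7.07% were called lower, so the share called rose over all genes as well. The 10 were *Mvd*, *Fdft1*, *Sqle*, *Lss*, *Cyp51*, *Ebp*, *Scap*, *Acaca*, *Fasn* and *Fads1*. In *Fdft1*, *Sqle*, *Lss*, *Cyp51*, *Ebp*, *Acaca* and *Fasn*, mice 2 and 4 were also the highest of their group. Leaving them out lowers the CD25 KO means of these genes by itself. The estimates of *Mvd* (-0.65 to -0.74), *Scap* (-0.30 to -0.41) and *Fads1* (-0.35 to -0.62) fell without them as well. The added calls are therefore no support of their own. *Sqle* then had a log2 fold change of -0.67 (FDR = 0.00369), *Cyp51* -0.61 (FDR = 0.00274) and *Acaca* -0.85 (FDR = 6.6e-05). *Hmgcs1* stayed near 0, at -0.10 (FDR = 0.465). The part of proliferating cells in these values was not tested.

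**Figure D4:**
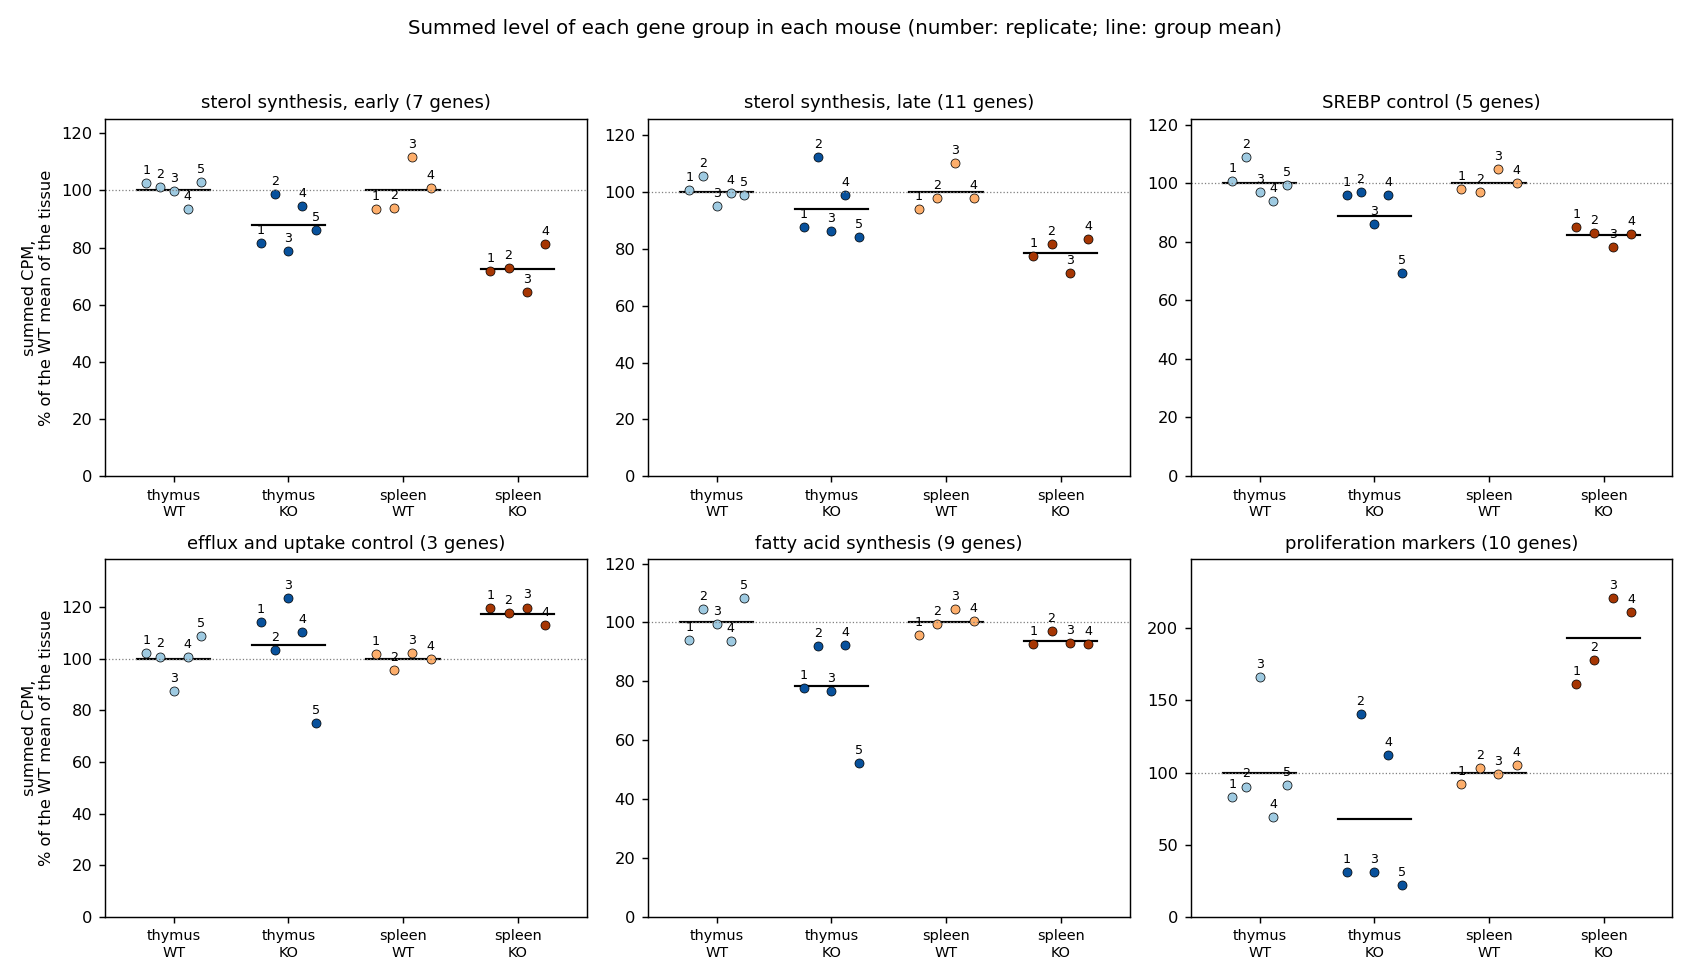
Summed CPM of each gene group in each mouse as a percentage of the WT mean of its tissue (vertical axis, from 0), with the replicate number at each point and the group mean as a line. In splenic CD25 KO mice early sterol sums lie between 64.54% and 81.35% of WT and late sterol sums between 71.6% and 83.37%. Their proliferation markers are above all splenic WT mice, and thymic CD25 KO mice 2 and 4 are the highest of their group in late sterol genes and proliferation markers.

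Per mouse, the sum over the 18 sterol synthesis genes was 85.8, 108, 83.98, 97.8 and 84.9 percent of the WT mean in thymic CD25 KO mice 1 to 5, and 75.9, 79.6, 69.8 and 82.8 percent in splenic CD25 KO mice 1 to 4. Among the 5 thymic CD25 KO mice, the 2 with the most proliferation marker RNA had the 2 highest sterol sums. Among the thymic WT mice this was not so, as mouse 3 had the most proliferation marker RNA and the lowest sterol sum (293 CPM). In spleen, sterol sums were lower and proliferation markers higher in every CD25 KO mouse than in any WT mouse. Fatty acid sums were 77.8, 91.9, 76.7, 92.5 and 52.4 percent in thymic and 92.5, 97.03, 92.96 and 92.5 percent in splenic CD25 KO mice, and thymic mouse 5 was far below the rest. Without that mouse *Mvd* and *Fasn* were called lower in the thymus.

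The effect of CD25 KO differed between the tissues for 2 of 34 genes, *Ebp* and *Sc5d*, both late sterol genes. For 1 gene (2.94%) the effect was higher in spleen, against 4.5% of 18686 genes, and for 1 lower, against 2.49%. *Ebp* was at 23.4, 25.5, 24.1, 25.3 and 23.6 CPM in thymic WT mice and 17.4, 20.5, 16.4, 22.3 and 18.7 CPM in thymic CD25 KO mice (-0.34 ± 0.09), with no overlap. The effect in spleen minus that in thymus was 0.49 ± 0.11 (FDR = 0.00462). *Sc5d* was at 38.4, 43.4, 32.6, 45.7 and 39.5 CPM in thymic WT and 44.8, 66.4, 46.8, 53.7 and 50.7 CPM in thymic CD25 KO mice (0.41 ± 0.12), where CD25 KO mouse 2 was the highest and mouse 1 within the WT range. Its difference was -0.63 ± 0.15 (FDR = 0.00635). Within a single tissue edgeR called neither gene, but DESeq2 called *Ebp* lower and *Sc5d* higher in the thymus, and the GC correction brought *Sc5d* past the threshold in spleen (FDR = 0.00467). The calls were kept in 11 (*Ebp*) and 9 (*Sc5d*) of 18 fits without 1 mouse, and for *Sc5d* not after a correction for GC content (FDR = 0.0127). For *Hmgcs1*, called in spleen and level in the thymus, the difference was -0.47 ± 0.15 (FDR = 0.039). None of the 14 genes called lower in spleen passed the test of the difference by edgeR or DESeq2. An unadjusted p under 0.05 was seen in 6 of them, each with the lower effect in spleen. These 14 genes were picked for a low estimate in spleen, which favours that direction in advance, and the share of all genes was not computed. Without thymic CD25 KO mouse 5, 1 of them, *Mvk*, passed.

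In WT Tregs most sterol genes were higher in spleen than in thymus. Of 34 genes 18 (52.9%) were called higher in splenic WT, against 21% of 18686 genes, and 5 (14.7%) lower, against 19.5%. Sterol synthesis genes made up 15 of the 18. Tissue, header date, mouse model and age cannot be told apart here. *Sqle* (1.62 ± 0.15), *Lss* (1.54 ± 0.08), *Insig1* (1.37 ± 0.13), *Msmo1* (1.17 ± 0.08), *Cyp51* (1.16 ± 0.16) and *Hsd17b7* (1.10 ± 0.13) all differed by more than 1 on the log2 scale. *Srebf2* differed less (0.41 ± 0.08, FDR = 0.000341), and *Srebf1* (-0.13 ± 0.10), *Scap* (0.11 ± 0.08), *Insig2* (-0.15 ± 0.10), *Acat2* (0.08 ± 0.10), *Dhcr7* (-0.08 ± 0.07) and *Tm7sf2* (-0.07 ± 0.12) were not called. The 5 lower genes were the exporters *Abca1* (-1.51 ± 0.14) and *Abcg1* (-0.47 ± 0.12), the desaturase *Scd2* (-1.11 ± 0.17), *Acss2* (-0.41 ± 0.09), and *Fads2*, which had 1 to 3 counts in splenic and 10 to 36 in thymic WT mice. *Fads2* was too low to test in spleen and passed the filter here only through thymic mice. The filter thus set the direction of its call, which adds no weight to the count of 5. Proliferation markers went against the sterol genes, with all 10 called lower in splenic WT. Summed immature thymocyte markers were at 79.6 to 229.6 CPM in thymic and 36.5 to 42.5 CPM in splenic WT mice. Erythroid markers were at 13.8 to 35.04 and 5.35 to 7.24 CPM, and B cell markers at 12.7 to 15.4 and 30.1 to 36.4 CPM. Sums of Treg and of myeloid markers overlapped. The part of such cells in these differences was not tested.

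**Figure D5:**
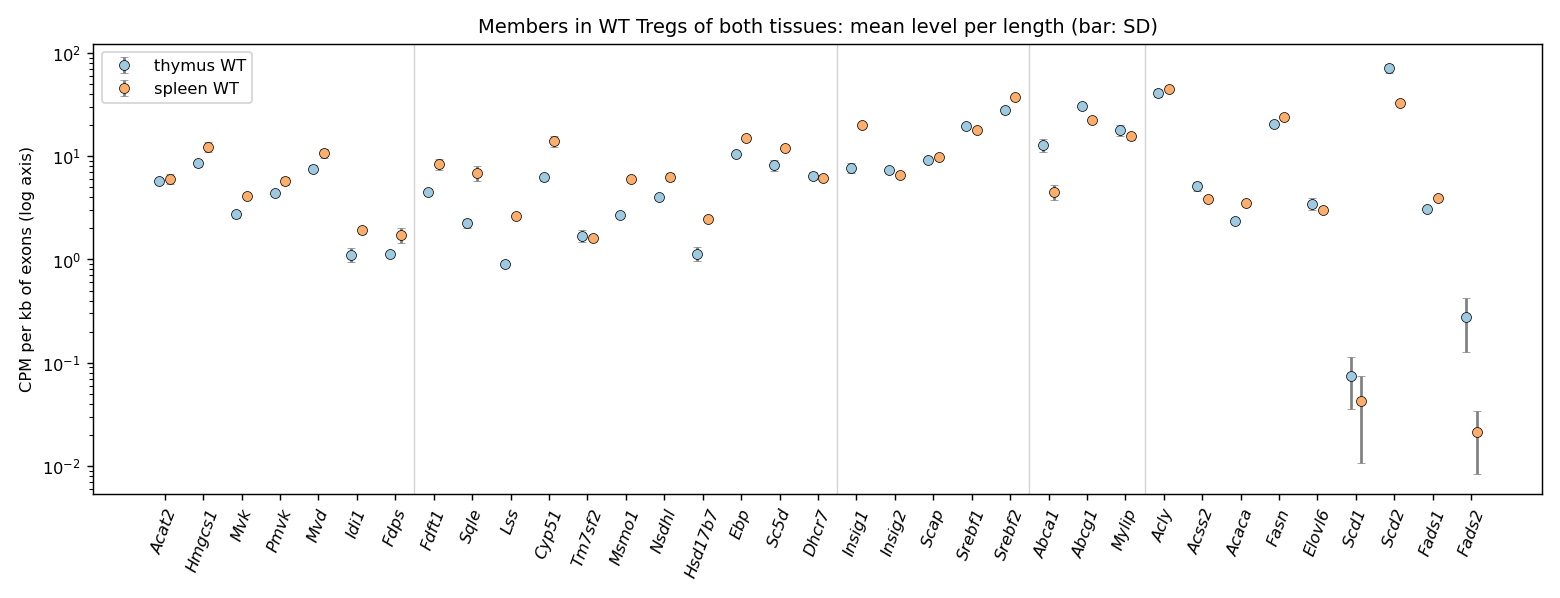
Mean CPM per kb of exons (vertical axis, logarithmic) of each gene in thymic (blue) and splenic (orange) WT Tregs, with the SD as a bar and vertical lines between the role groups. *Acly*, *Srebf2* and *Scd2* are the highest in spleen and *Scd2*, *Acly* and *Abcg1* in thymus, and *Scd1* and *Fads2* lie far below all others.

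Per kb of exons, levels can be set side by side between genes, within limits. The length counts every annotated exon of a gene, whether or not Tregs use it, so a gene with many unused exons comes out too low. In splenic WT Tregs *Acly* was the highest (44.7 ± 2.46 CPM per kb, SD, n = 4), followed by *Srebf2* (37.3 ± 2.31) and *Scd2* (32.95 ± 1.86), and in thymic WT Tregs *Scd2* (71.1 ± 6.43, n = 5). *Srebf2* stood above *Srebf1* in both tissues (17.98 ± 0.160 CPM per kb in spleen, 19.6 ± 1.01 in thymus, where *Srebf2* had 28.02 ± 2.12). Of the stearoyl-CoA desaturases, *Scd2* was far above *Scd1*, which was at 0.0426 ± 0.0319 CPM per kb in spleen and 0.0748 ± 0.0394 in thymus. Of sterol genes, *Ebp* (14.99 ± 0.813) and *Cyp51* (14.1 ± 1.68) were the highest in splenic WT and their SDs overlapped. *Tm7sf2* (1.62 ± 0.0944), *Fdps* (1.73 ± 0.271) and *Idi1* (1.91 ± 0.144) were the lowest and close to each other. *Fdps* and *Tm7sf2* have exonic bases in common with a gene on the same strand (1124 of 4208 and 532 of 4403). Their levels were not corrected for this, so their place among the lowest is not settled.

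Of 59 other genes of lipid handling 53 were tested in spleen, where 2 were called lower (3.77%, against 3.55% of all genes) and 2 higher (3.77%, against 5.9%). These shares were near or below those of all genes. The lower ones were *Aacs*, which activates acetoacetate for lipid synthesis (-0.34 ± 0.06, FDR = 0.00134), and *Acsl3*, an acyl-CoA synthetase (-0.55 ± 0.11, FDR = 0.0021). The higher ones were *Rnf145*, a sterol-responsive ubiquitin ligase (0.22 ± 0.05, FDR = 0.00388), and *Mid1ip1*, which promotes acetyl-CoA carboxylase activity (0.40 ± 0.08, FDR = 0.00295). In the thymus 4 of 55 were called lower (7.27%, against 2.99% of all genes) and 0 higher by edgeR (against 3.17%). At an unadjusted p under 0.05, 18 were lower and 7 higher, but the share of all genes at that p was not computed. DESeq2 called 10 lower and 2 higher, against 6.33% and 7.5% of all genes it tested. The 4 were *Syvn1*, a ligase of protein quality control in the endoplasmic reticulum (-0.26 ± 0.06), *Dgat2*, which makes triglyceride (-1.06 ± 0.19, FDR = 0.00388), *Elovl1*, an elongase of very long fatty acids (-0.49 ± 0.09, FDR = 0.00539), and *Acsl5*, an acyl-CoA synthetase (-0.40 ± 0.08, FDR = 0.00756).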

How the data were processed

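RNA-seq of 18 Treg samples, each from 1 mouse, was analysed. The authors made libraries with ribosomal RNA depletion, sequenced them as paired ends and, per the submitters' processing notes, aligned the reads to GRCm38 with STAR (2.5.0b) and deposited counts per gene of GENCODE M13 from featureCounts (1.5.0), without normalization. Strand and multiple mapping settings are not given in the sources used here. Symbols, exonic lengths and GC content were taken from GENCODE M21, in which 50376 of 50600 identifiers have a symbol.

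Samples were grouped by the labels. With R 4.3.3 and edgeR 4.0.16, genes were kept by filterByExpr, libraries scaled by TMM, and CD25 KO compared with WT in each tissue by the quasi-likelihood test with Benjamini-Hochberg adjustment over all genes tested. FDR < 0.01 follows the study. All 18 samples in 1 fit with 4 groups gave the difference of effects and the comparison of WT Tregs. Levels are TMM-scaled CPM. Alternatives were RLE and upper-quartile scaling, DESeq2 1.42.0, other filters, FDR < 0.05, 1 fit of all samples, a GC correction, the thymic mouse number as a block, and leaving out mice. All 35 genes are named, with every mouse for those called in a tissue or differing between tissues. The members, roles and lists were chosen with earlier results of these data known, and the study also picked lipid genes from these libraries, so no list has a test of its own.

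On simulated counts with 200 changed genes, edgeR recovered 96% of genes changed by 1 and 71% of those changed by 0.585 on the log2 scale in spleen (17300 genes, 2 false calls). In thymus it recovered 85% and 38% (16802 genes, 1 false call), and for the difference between tissues 69% and 31% (18208 genes, 1 false call). The changed genes were drawn only from those above a minimum mean count, so these shares do not cover *Scd1* and *Fads2*. The simulated counts held no trend with GC content and no mouse set apart over many genes.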

Additional observations from a re-analysis of the deposited data

Results flagged for a closer look

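In 140 groups of mice (35 genes in 4 groups), 5 held a mouse whose gap to the next was large for the range of its group. Chance alone would mark about 1 in 20 groups. Of these, 3 were thymic CD25 KO mouse 5, with *Srebf1* at 72.5 CPM (others 111 to 119), *Abcg1* at 126.3 CPM (others 212 to 228) and *Scd2* at 149 CPM (others 313 to 376). The other 2 were in splenic CD25 KO mice, where *Abcg1* was at 171 CPM in mouse 4 (others 185 to 187) and *Elovl6* at 19.2 CPM in mouse 2 (others 20.9 to 21.2).

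The CD25 KO effect differed between the tissues for *Ebp*, by 0.49 on the log2 scale (FDR = 0.00462), and for *Sc5d*, by -0.63 (FDR = 0.00635), both as spleen minus thymus in edgeR's test of the difference itself. Each is 2.94% of 34 genes, against 4.5% of all genes higher and 2.49% lower, so the shares are near or below those of all genes. The calls held in 11 (*Ebp*) and 9 (*Sc5d*) of 18 fits without 1 mouse, and that of *Sc5d* was lost with the GC correction (FDR = 0.0127).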

How the results depend on the processing

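In spleen, 14 members were called lower. Over the fits without 1 mouse the count was 9 to 13 (9 without WT mouse 3 or 4), and for the sterol synthesis genes 7 to 11 against 11. Those fits called 2.31% to 3.42% of all genes lower. With all 18 samples in 1 fit the count was 8, against 1.99% of all genes, and 7 for sterol synthesis genes. *Mvk*, *Mvd*, *Sqle*, *Lss* and *Srebf2* were called under all 16 alternatives. Of 33 members tested, the count called higher was 3 with DESeq2, 3 at FDR < 0.05, 2 without a filter and 2 with the GC correction. It was 0 in 1 fit of all samples, and 0 to 1 without 1 mouse (0 without WT mouse 2). Over all genes, the shares called higher were 7.25% with DESeq2, 10.2% at FDR < 0.05 and 4.94% without a filter. They were 6.39% with the GC correction and 2.27% in 1 fit of all samples. In thymus, the count called lower was 5 with DESeq2, 2 without a filter, 7 in 1 fit of all samples, 9 at FDR < 0.05, 2 with the GC correction, 10 without CD25 KO mice 2 and 4, and 0 to 3 without 1 mouse (0 without WT mouse 2 or CD25 KO mouse 3, 3 without CD25 KO mouse 2 or 4, 2 without mouse 5). Over all genes, the shares called lower were 6.33% with DESeq2, 2.03% without a filter and 8.48% in 1 fit of all samples. They were 10.9% at FDR < 0.05, 2.35% with the GC correction and 7.07% without CD25 KO mice 2 and 4. Without 1 mouse they were 1.07% to 3.01%. In thymus, 1 member was higher with DESeq2, in 1 fit of all samples and at FDR < 0.05, against 7.5%, 6.94% and 12.3% of all genes. For the difference between tissues, 2 were lower and 2 higher at FDR < 0.05, 2 higher with DESeq2, 0 lower and 2 higher with the GC correction, and 0 to 2 in each direction without 1 mouse. Over all genes, the shares were 7.03% lower and 9.82% higher at FDR < 0.05, and 7.38% higher with DESeq2. They were 2.95% lower and 4.63% higher with the GC correction, and 1.49% to 3.05% lower and 2.83% to 5.27% higher without 1 mouse. Related genes called higher in spleen were 1 with upper-quartile scaling and 1 with the GC correction, against 5.27% and 6.39% of all genes. In thymus, 1 was higher with upper-quartile scaling, 2 with DESeq2, and 10 were lower with DESeq2, against 4.76%, 7.5% and 6.33% of all genes. The cause of these moves was not tested. No member's estimate changed sign with a call.

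The labels do not say whether the thymic mouse numbers pair mice. Same-numbered mice had correlations of -0.26 to 0.13, with 1 of 5 over 0.1, which cannot settle it. With the replicate block edgeR called 0 members lower (14 at an unadjusted p under 0.05), against 0.93% of all genes. It called 0 with the replicate block and the GC correction (8), against 0.85% of all genes. Shares of all genes at an unadjusted p were not computed. Log2 fold changes fell with GC content across genes (Spearman's rho -0.17 in spleen, -0.40 in thymus, over genes, which are not independent). Counts limit *Scd1* and *Fads2*, which had at most 49 per mouse. Over all genes, 620 were lower and 1031 higher in spleen, against 371 and 424 in 1 fit of all samples and 1227 and 1774 at FDR < 0.05. In thymus 508 and 539 were called, against 1226 and 1453 with DESeq2, 1585 and 1296 in 1 fit of all samples, 1858 and 2093 at FDR < 0.05, and 158 and 51 with the replicate block. For the difference between tissues 465 and 840 were called, against 788 and 1352 with DESeq2 and 1314 and 1835 at FDR < 0.05.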
